A study of Homo sapiens with 4 samples.

Results

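The IL1 family genes described here were 9 genes, found by their symbol among the 20372 genes of the deposited table. They are the ligand genes IL33, IL1A, IL1B, and IL18, the antagonist gene IL1RN, and the receptor genes IL1R1, IL1RAP, and IL1RL1. The last is IRAK2, which encodes a kinase-like protein. RNA was sequenced from TPC1 cells, an established human papillary thyroid carcinoma line that carries a CCDC6-RET fusion, after treatment with the RET inhibitor BLU6864 for 6 h or for 24 h. There were 2 libraries at each time point, numbered 1 and 2, all from the same line grown in DMEM with serum and all exposed to the inhibitor, and vehicle libraries were not analysed here. The dose is 100 µM in the labels but 100 nM in the study's methods, and the labels mark both 24 h libraries as a re-analysis. The 6 h libraries carry no such mark. Time in the inhibitor, time in culture, and whatever the mark stands for therefore cannot be told apart in the differences below. The labels do not state whether the libraries of a time point came from separate cultures, so the P values below measure only the spread between these libraries, which may be technical. The genes were chosen with the counts of this same 6 h and 24 h comparison known, so their differences are given as a description, with a standard error but without a test.

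IL1α, IL1β, IL18, and IL33 are cytokines of one structural family. IL1α and IL1β both bind the receptor encoded by IL1R1, which then recruits the accessory chain encoded by IL1RAP, and the antagonist encoded by IL1RN occupies the same receptor without recruiting that chain. IL33 binds ST2, the product of IL1RL1, which uses the same accessory chain. The assembled receptors signal through the adaptor MYD88 and proteins of the IRAK family, including IRAK2, to NF-κB and the MAP kinases. IL1α and IL33 are stored in the nucleus of epithelial cells and act as alarmins when cells are damaged, whereas IL1β and IL18 are usually cut by caspase-1 before release.

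The 3 ligand genes with appreciable counts at 6 h, IL33, IL1A, and IL1B, differed most among the 6 genes that passed a filter on low counts, and the 250 bases before the start of each are shown so that their sequences can be set beside their counts. They were taken from RefSeq on the GRCh38.p14 build at the start that coincides with the canonical transcript of GENCODE v44, whereas gene positions elsewhere in the text follow the hg19 build of the deposited table. Capitals mark matches to the motifs searched on both strands, which were the NF-κB consensus, AP-1 (TGANTCA), the cyclic AMP response element (TGACGTCA), the STAT motif (TTCNNNGAA), the ETS motif (CCGGAAGT), the CArG box, and the TATA box (TATAAA). The windows of IL33 (chr9:6215557-6215806, plus strand), IL1A (chr2:112784494-112784743, minus strand), and IL1B (chr2:112836780-112837029, minus strand) read 5′ to 3′ as follows.
IL33: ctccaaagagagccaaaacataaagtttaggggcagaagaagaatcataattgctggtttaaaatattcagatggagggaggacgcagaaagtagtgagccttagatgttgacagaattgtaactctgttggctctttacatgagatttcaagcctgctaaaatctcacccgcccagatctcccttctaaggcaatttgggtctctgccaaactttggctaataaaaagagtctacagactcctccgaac
IL1A: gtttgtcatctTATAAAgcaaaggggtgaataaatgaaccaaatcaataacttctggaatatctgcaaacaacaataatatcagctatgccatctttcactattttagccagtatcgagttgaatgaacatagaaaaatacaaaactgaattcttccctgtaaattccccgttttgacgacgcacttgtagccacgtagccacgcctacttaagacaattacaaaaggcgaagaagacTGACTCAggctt
IL1B: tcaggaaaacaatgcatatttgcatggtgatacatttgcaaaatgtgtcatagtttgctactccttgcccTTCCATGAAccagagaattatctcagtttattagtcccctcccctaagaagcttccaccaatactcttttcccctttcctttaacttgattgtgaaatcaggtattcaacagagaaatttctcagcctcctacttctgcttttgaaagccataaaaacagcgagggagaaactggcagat

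The IL33 window held 0 matches. The IL1A window held an AP-1 match, TGACTCA, from 12 to 6 bases before the start, and a TATA box match from 239 to 234 bases before it. In the IL1B window the single match was to the STAT motif, TTCCATGAA, from 180 to 172 bases before the start. Among 35114 RefSeq windows of the same length, 6.57% held AP-1, 6.57% the STAT motif, 10.7% the TATA box, 5.21% the NF-κB consensus, 1.65% the cyclic AMP response element, 3.42% the ETS motif, and 1.16% the CArG box. A window was matched for 8 of the 9 genes, all except IL18. The windows also differed in base composition. Those of IL33, IL1A, IL1B, IL1RN, and IL1RL1 were 42.4%, 37.6%, 40.0%, 48.4%, and 33.6% G or C, all under the median of 58.0% for all windows. By contrast, those of IL1R1, IL1RAP, and IRAK2 were 76.8%, 74.8%, and 72.0% G or C. Of the 8 windows, 3 held a TATA box match, those of IL1A, IL1RN, and IL1RL1, and 0 held the NF-κB consensus. The TATA box matches lay between 32 and 25 bases before the start in IL1RN and from 29 to 24 in IL1RL1, much nearer than in IL1A.

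The libraries held between 23917056 and 27457040 counted reads. Across genes, the lowest Spearman correlation between libraries of a time point was 0.998, and the highest between time points was 0.941. Library sizes were scaled by TMM, and edgeR was run on the 12876 genes that passed its filter on low counts. Differences are log2 fold changes of 24 h over 6 h, so a negative value marks a gene with fewer reads after the longer treatment, and SE is the standard error. The markers of the labelled cell type were partly present. The thyroid transcription factor gene PAX8 had between 19124 and 22978 counts, whereas NKX2-1 and TSHR were at 0 in all 4 libraries. Of the thyroid markers, 4 were tested, of which FOXE1 rose, TG fell, and 2 did not pass. Of 6 epithelial markers, 4 were tested, of which KRT7 rose, KRT19 fell, and 2 did not pass, while EPCAM had at most 11 counts and CDH1 at most 8. Of 10 leukocyte markers, 6 had at most 3 counts in every library, and PTPRC had at most 5. Because RNA was taken from whole cultures, fewer cells that express a gene and less RNA per cell cannot be told apart.

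Of the 9 genes, 6 passed the filter on low counts, and all 6 of these were lower at 24 h. Each of the 6 had a log2 fold change under -0.5. Of all genes tested, 17.7% had such a fall with an unadjusted P under 0.01, the cutoffs of the study's methods. Both 24 h libraries lay below both 6 h libraries in the same 6 genes, and in 40.8% of all genes tested. Since the genes were chosen on this comparison, nothing is read from these counts. Among these 6, the ligand genes differed by factors of 46.3, 11.7, and 4.08, whereas IL1R1, IL1RAP, and IRAK2 differed by factors between 1.49 and 1.63.

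**Figure D1:**
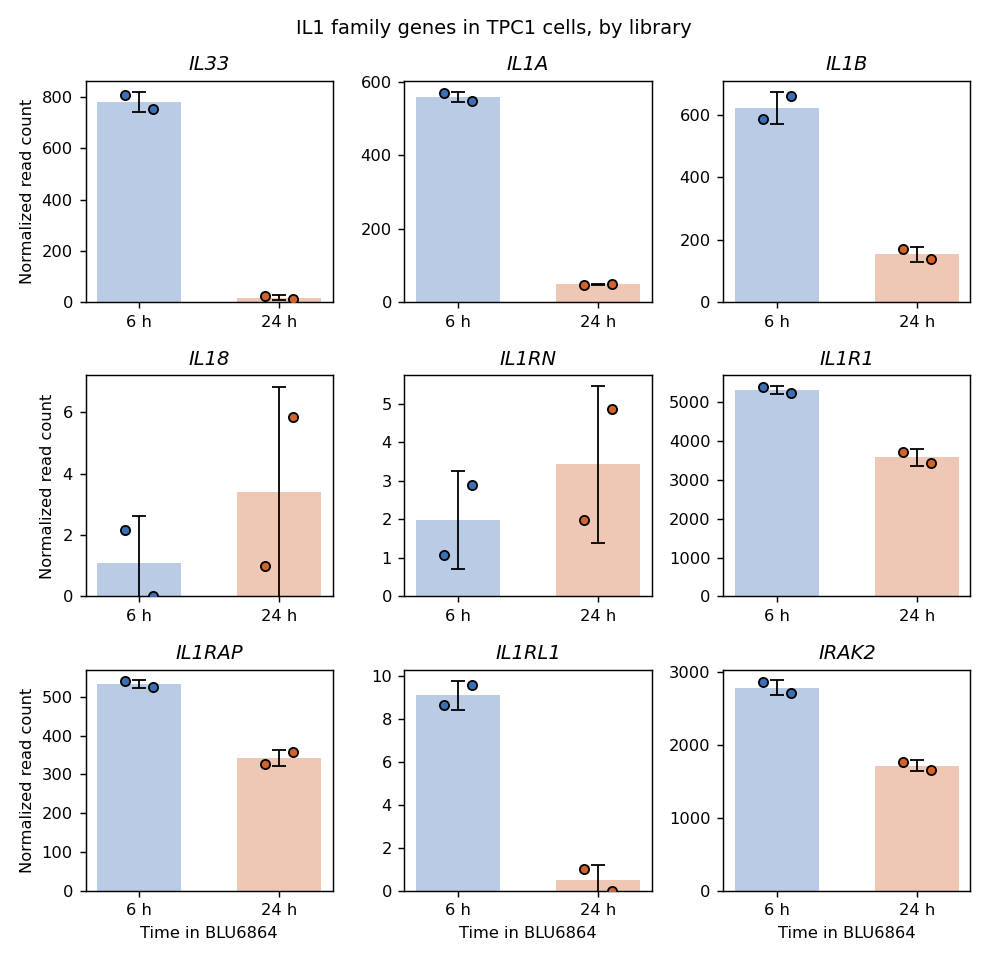
Normalized read counts (vertical axes, each from 0) of the 9 IL1 family genes after 6 h (blue) and 24 h (orange) of BLU6864; points are single libraries, bars the mean of 2, and error bars the SD, not drawn below 0. The 24 h points of IL33, IL1A, and IL1B sit far below the 6 h points, those of IL1R1, IL1RAP, and IRAK2 lie moderately below, and IL18, IL1RN, and IL1RL1 stay under 10 normalized counts in every library.

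IL33 (ENSG00000137033), on chromosome 9 of hg19 from 6215805 to 6257983, encodes the nuclear alarmin and ligand of ST2. After 6 h it had 751 and 785 raw counts, and after 24 h it had 23 and 11. The groups did not overlap, and the 24 h libraries differed from each other by more, in proportion, than the 6 h libraries did. The normalized count was 782 ± 40.7 after 6 h and 16.8 ± 8.63 after 24 h (SD, n = 2), a difference of -5.53 on the log2 scale (SE 0.172). Only 11 of the 12876 genes tested had a larger fall. The ratio of a 6 h library to a 24 h library ranged from 32.9 to 75.7 over the 4 pairs. Library 1 at 24 h held most of the remaining reads. Without it the log2 fold change was -6.17, and without library 2 at 24 h it was -5.08. Both lie further from -5.53 than the SE of 0.172.

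IL1A (ENSG00000115008), on chromosome 2 of hg19 from 113531492 to 113542167, encodes IL1α, which is active without being cut. Its raw counts were 528 and 573 at 6 h and 47 and 50 at 24 h. Both time points were tight, at 560 ± 14.3 normalized counts after 6 h and 47.7 ± 1.29 after 24 h (SD, n = 2). The log2 fold change was -3.55 (SE 0.136), the 145th largest fall of the genes tested. The ratio of a 6 h library to a 24 h library stayed between 11.3 and 12.2.

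IL1B (ENSG00000125538), on the same chromosome from 113587328 to 113594480, encodes IL1β, whose precursor is cut by caspase-1. It had 543 and 687 raw counts at 6 h and 170 and 140 at 24 h. The groups did not overlap, with 153 ± 23.4 normalized counts (SD, n = 2) at 24 h against 623 ± 51.6 at 6 h. The log2 fold change was -2.03 (SE 0.116). Between single libraries of the time points the ratio lay between 3.46 and 4.84, so the ranges of the ratio for IL33, IL1A, and IL1B did not overlap.

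The other ligand and the antagonist were near the limit of detection at both times. IL18 (ENSG00000150782), on chromosome 11 from 112013974 to 112034840, had 2 and 0 counts at 6 h and 1 and 6 at 24 h. IL1RN (ENSG00000136689), on chromosome 2 from 113864791 to 113891593, had 1 and 3 counts at 6 h and 2 and 5 at 24 h. The time points overlapped in both genes. The summed counts were 2 at 6 h and 7 at 24 h for IL18, and 4 and 7 for IL1RN. The position of IL18 overlaps a second entry of the table named SDHD, on the opposite strand, and that entry was at 0 in every library. The strand setting of the counting is not given in the sources used here.

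Among the receptor genes, IL1R1 (ENSG00000115594), on chromosome 2 from 102681004 to 102796334, encodes the signalling receptor for IL1α and IL1β and was the most abundant of the 9 genes. It had 4987 and 5456 raw counts at 6 h and 3738 and 3518 at 24 h. The groups did not overlap, and the normalized count was 5309 ± 105 after 6 h and 3574 ± 213 after 24 h (SD, n = 2). The log2 fold change was -0.57 (SE 0.0722). IL1RAP (ENSG00000196083), on chromosome 3 from 190231840 to 190375843, encodes the accessory chain that the IL1 and IL33 receptors share. Its raw counts were 500 and 549 at 6 h and 329 and 367 at 24 h, or 533 ± 9.23 and 342 ± 20.8 normalized counts (SD, n = 2). The log2 fold change of -0.64 (SE 0.0965) was close to that of IL1R1. The ratio of IL1R1 to IL1RAP in counts per kilobase of transcript was 9.11 at 6 h and 9.55 at 24 h.

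IL1RL1 (ENSG00000115602), on chromosome 2 from 102927962 to 102968497, encodes ST2, the receptor for IL33. It had 8 and 10 raw counts at 6 h and 1 and 0 at 24 h, too few to pass the filter. The groups did not overlap, and the summed counts were 18 and 1. Its position overlaps that of IL18R1, which had between 205 and 335 counts. Both genes lie on the plus strand, so counting by strand would not separate their reads.

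IRAK2 (ENSG00000134070), on chromosome 3 from 10206549 to 10285427, encodes a kinase-like protein of the receptor complex that sustains NF-κB signalling. It had 2646 and 2833 raw counts at 6 h and 1775 and 1707 at 24 h. In normalized counts it was 2787 ± 97.9 (SD, n = 2) and 1715 ± 75.8, without overlap, and the log2 fold change was -0.70 (SE 0.0713).

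Levels of different genes were compared in counts scaled to library size and transcript length (CPM per kilobase), with the canonical transcript of GENCODE v44 for the length. At 6 h the order was IL1R1 at 39.2, IRAK2 at 31.1, IL1B at 15.8, IL33 at 11.1, IL1A at 10.6, IL1RAP at 4.30, IL1RL1 at 0.175, IL1RN at 0.0444, and IL18 at 0.0370. The libraries of IL33 and IL1A overlapped on this scale, as did those of IL1RN and IL18, and all other neighbours were apart. By 24 h the order had changed. IL1R1 at 26.4 and IRAK2 at 19.1 still led, followed by IL1B at 3.88, IL1RAP at 2.76, IL1A at 0.905, and IL33 at 0.239. The neighbours IL33 and IL18, and IL18 and IL1RN, overlapped at 24 h. The level of IL33 relative to IL1A was 1.05 at 6 h and 0.265 at 24 h, and relative to IL1B it was 0.705 and 0.0617.

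**Figure D2:**
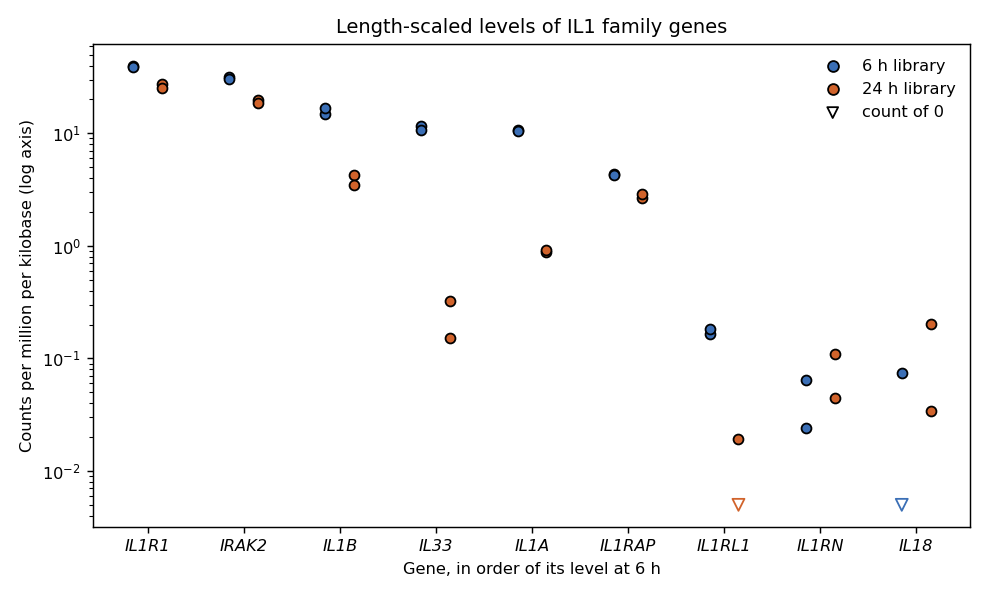
Counts scaled to library size and transcript length (CPM per kilobase, log axis) of the 9 genes in order of their level at 6 h, with 2 libraries at 6 h (blue) and 2 at 24 h (orange); open triangles mark a count of 0. IL33 and IL1A stand beside each other near 11 at 6 h and apart at 0.239 and 0.905 at 24 h, while IL1R1 and IRAK2 keep the highest levels at both times.

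The other genes of the family and its pathway were taken from 5 lists that hold none of the 9 genes, and these were tested in the same edgeR quasi-likelihood fit. The lists were also chosen with earlier results of these data known. Their counts and P values therefore describe this comparison and are not independent support. The methods of the study state these cutoffs for a fall, and a rise was called here with the same size and P. By these cutoffs, 17.4% of the genes in the fit rose and 17.7% fell, around a median log2 fold change of 0.0029. With an adjusted P under 0.05 in place of those cutoffs, 33.0% rose and 32.6% fell. Adjusted P is by Benjamini-Hochberg over the 12876 genes.

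The 6 other ligand or antagonist genes, IL36A, IL36B, IL36G, IL36RN, IL37, and IL1F10, had at most 3 counts in any library, and 0 of them could be tested. Of the 8 other receptor, co-receptor, and binding protein genes, 4 were tested, of which 1 rose, 1 fell, and 2 did not pass, with a median log2 fold change of -0.20. The gene that rose was IL1R2, which encodes the decoy receptor that binds IL1 without signalling. It had 30 and 44 counts at 6 h and 66 and 64 at 24 h, a difference of 0.77 on the log2 scale (SE 0.230, edgeR adjusted P = 0.00491). This call was lost with DESeq2 and without library 1 of either time point, and the adjusted P ranged from 0.00173 to 0.0857 over the alternatives. Per kilobase, the level of IL1R1 was 40.1 times that of IL1R2 at 6 h and 15.7 times at 24 h. SIGIRR, which encodes an inhibitory receptor of the family, fell from 198 ± 13.6 to 76.4 ± 8.93 normalized counts (SD, n = 2), a difference of -1.37 on the log2 scale (SE 0.155, edgeR adjusted P = 1.71e-08).

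Most of the receptor signalling genes did not pass the cutoffs. Of 23 genes, 21 were tested, of which 1 rose, 4 fell, and 16 did not pass, with a median log2 fold change of -0.04. By an edgeR adjusted P under 0.05 without a limit on size, 9 rose and 8 fell. MYD88, the adaptor of the IL1 receptors, rose from 387 ± 9.30 to 600 ± 39.9 normalized counts (SD, n = 2), with a log2 difference of 0.63 and an edgeR adjusted P of 1.63e-06. The number that rose was 3 with upper quartile scaling, 4 without library 1 at 24 h, 3 without library 2 at 24 h, and 2 without library 1 at 6 h. IRAK4, the kinase that acts first in the complex, fell with a log2 difference of -0.92 and an edgeR adjusted P of 1.53e-10. MAP3K8, a kinase upstream of ERK that is activated by IL1, fell to the same extent, with a log2 difference of -0.92 and an edgeR adjusted P of 7.16e-10. The log2 fold change was -0.82 for TIFA, which encodes a TRAF6-binding adaptor, and -0.72 for the kinase gene MAP3K3, with edgeR adjusted P of 1.96e-10 and 8.97e-08. IRAK1, named here after its values were seen, had a log2 fold change of 0.46 and did not pass the cutoff on size. Its level per kilobase was 1.89 times that of IRAK2 at 6 h and 4.25 times at 24 h.

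Among genes for the processing and release of the ligands, 14 of 17 were tested, of which 4 rose, 1 fell, and 9 did not pass, with a median log2 fold change of 0.19. CASP1, which encodes the enzyme that cuts IL1β and IL18, had 39 and 37 counts at 6 h and 220 and 194 at 24 h. Its normalized counts were 38.8 ± 4.67 (SD, n = 2) and 204 ± 21.5, a difference of 2.40 on the log2 scale (SE 0.180, edgeR adjusted P = 6.05e-12). NLRP3, the sensor of an inflammasome, rose with a log2 difference of 0.92 and an edgeR adjusted P of 8.66e-05, from 61.8 ± 8.74 to 116 ± 8.89 normalized counts (SD, n = 2). PYCARD, the adaptor between NLRP3 and caspase-1, had at most 3 counts, and CASP5 and AIM2 were at 0 in every library. GSDME, listed in the table as DFNA5, encodes a pore-forming protein and rose with a log2 difference of 0.70 and an edgeR adjusted P of 3.39e-09. NINJ1, which acts in membrane rupture, had a log2 difference of 0.51 and an edgeR adjusted P of 5.31e-07 and fell short of the cutoff on size with library size alone and without library 2 at 24 h. CAPN2, the catalytic subunit of a calpain, the protease class that cuts IL1α, fell with a log2 difference of -0.73 and an edgeR adjusted P of 1.35e-08. The other calpain genes of the list, named after their values were seen, had positive log2 differences that did not pass the cutoff on size, 0.40 for CAPN1 with an edgeR adjusted P of 2.22e-05 and 0.49 for CAPNS1 with an edgeR adjusted P of 2.69e-06.

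Genes known to be induced by IL1 moved in both directions, and more of them fell. All 25 were tested, of which 3 rose, 11 fell, and 11 did not pass, and the median log2 fold change was -0.35. PTGS2, which encodes cyclooxygenase-2, had 11454 and 10869 counts at 6 h and 135 and 120 at 24 h, a difference of -6.50 on the log2 scale (SE 0.113, edgeR adjusted P = 1.25e-24). CCL20, a chemokine gene, fell from 255 and 232 counts to 9 and 3, with a log2 difference of -5.36 and an edgeR adjusted P of 1.73e-15. With a minimum of 10 counts in each library CCL20 was not tested. The granulocyte growth factor gene CSF3 fell from 422 and 525 counts to 20 and 13, with a log2 difference of -4.87 and an edgeR adjusted P of 1.78e-18. MMP1, which encodes an interstitial collagenase, fell from 7043 ± 250 to 278 ± 14.4 normalized counts (SD, n = 2), a difference of -4.66 on the log2 scale (edgeR adjusted P = 1.93e-24). These 4 genes were named for having the largest falls of the list. The next was MMP3, at -3.21 on the log2 scale. IL33 at -5.53 lay within the range of the 4, and IL1A at -3.55 lay between MMP1 and MMP3. Since the 4 targets and the IL1 family genes were all picked on this same comparison, nothing is read from their likeness. In the opposite direction, SAA1, an acute phase gene, rose from 692 ± 24.6 to 5278 ± 521 normalized counts (SD, n = 2), with a log2 difference of 2.93 and an edgeR adjusted P of 4.59e-21. CCL2, which encodes a monocyte chemokine, and the cytokine gene IL6 rose as well, with log2 fold changes of 1.40 and 1.11 and edgeR adjusted P of 4.20e-12 and 8.24e-13.

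**Figure D3:**
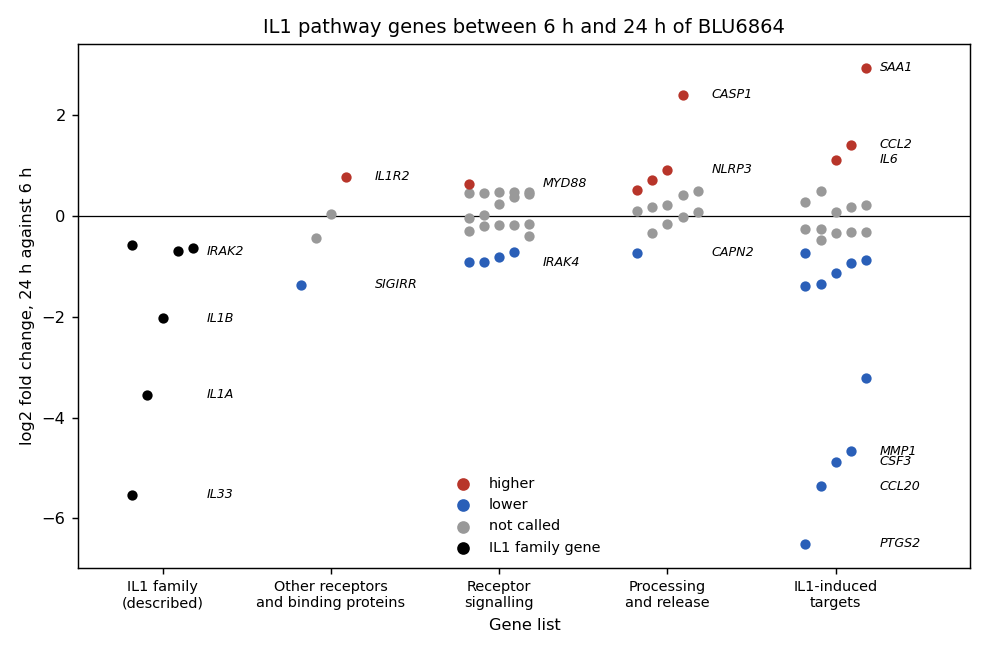
The log2 fold change of 24 h against 6 h (vertical axis) for the 6 IL1 family genes that passed the filter (black) and for tested genes of 4 pathway lists, each point 1 gene; red genes were called higher, blue lower, and grey not called. IL33 lies among PTGS2, CCL20, CSF3, and MMP1, which were named as the lowest of the IL1-induced targets. IL1A lies between MMP1 and MMP3, the next lowest target, while the signalling genes lie between -0.92 and 0.63.

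The genes sit in 2 clusters on chromosome 2 and at 4 single loci. Between IL1A and IL1RN the table lists 9 genes over 360102 bases, and all of them except IL1A and IL1B had at most 5 counts in any library. The 6 others of this cluster, all genes of other ligands or antagonists of the family, had at most 3 counts. Between IL1R2 and IL18RAP there were 6 genes over 460720 bases, where IL1R1 was lower at 24 h, IL1R2 rose, and IL18R1 had a log2 fold change of -0.44 that did not pass the cutoff on size. Around IL33, the 3 tested neighbours KIAA2026, RANBP6, and UHRF2, named after their values were seen, had log2 fold changes of 0.02, -0.11, and 0.07 and did not pass. Of the 3 neighbours tested around IRAK2 and the 3 around IL18, 0 passed. Beside IL1RAP, by contrast, the claudin genes CLDN1 and CLDN16 rose, with log2 fold changes of 1.46 (edgeR adjusted P = 9.41e-15) and 2.95 (edgeR adjusted P = 6.46e-20).

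**Figure D4:**
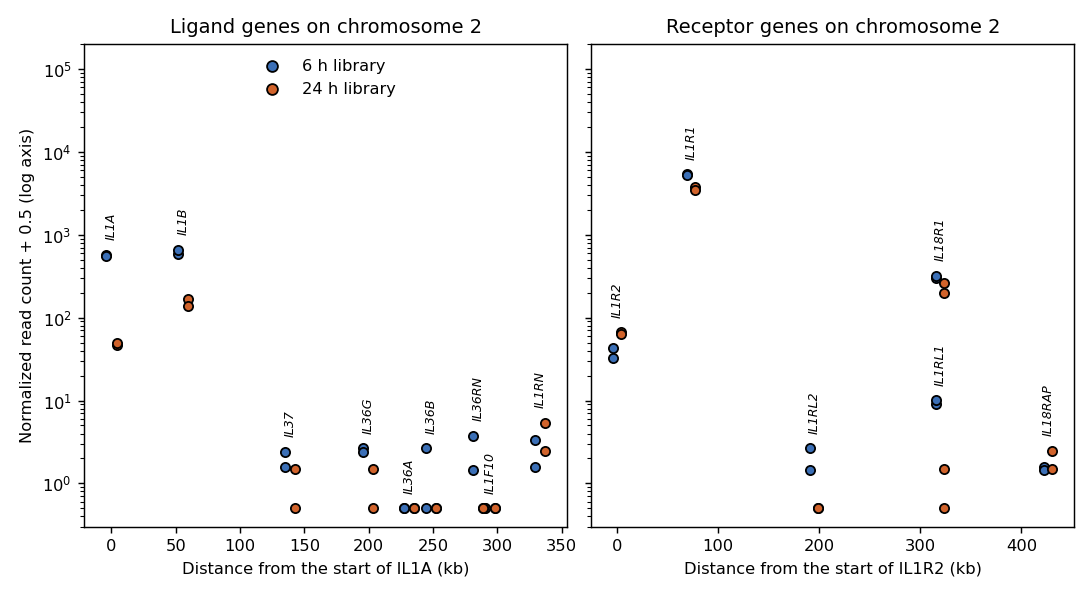
Normalized read count plus 0.5 (log axis) of the genes in the ligand cluster and the receptor cluster against their distance in kb from the start of IL1A or IL1R2, one point per library, with 6 h points (blue) drawn slightly left and 24 h points (orange) slightly right of the true position. IL1A and IL1B stand above the 7 other genes of the ligand cluster, which lie under 6 normalized counts, and IL1R1 is the highest gene of the receptor cluster.

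The genes whose pattern over the 4 libraries was most like that of a ligand were found by the Euclidean distance between centred log2 CPM values, among 12722 genes. For IL33 these were CCL20 at a distance of 0.420, SCEL at 0.457, and DLGAP5 at 0.520. For IL1A they were TPX2 at 0.0841, TFPI2 at 0.0862, and MYBL2 at 0.0975. For IL1B they were THBD at 0.0667, AC004381.6 at 0.0736, and MEI1 at 0.0761. With 4 libraries in 2 groups, such a distance reflects mostly the size of the difference between the time points.

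Some markers of other cell types moved in the same direction as the ligand genes. Of 5 endothelial markers, PECAM1 was not analysed here, KDR fell from 485 and 517 counts to 44 and 22, with a log2 difference of -3.97 and an edgeR adjusted P of 4.83e-17, and VWF fell from 16 and 11 to 3 and 5. CDH5, a defining marker of these cells, had at most 1 count. TEK had 7 and 8 counts at 6 h and 7 and 2 at 24 h and was not tested. The summed count of the endothelial list was between 509 and 536 at 6 h and between 29 and 55 at 24 h, most of it KDR. For the leukocyte list the sum was between 4515 and 4851 at 6 h and between 2691 and 2832 at 24 h, nearly all of it CD68, while CD14 rose with a log2 difference of 0.95 and an edgeR adjusted P of 0.000244. Of 6 fibroblast markers, COL1A1 and PDGFRB fell, LUM rose, DCN had at most 1 count, and COL1A2 and COL3A1 were at 0. Their sum was between 560 and 650 at 6 h and between 246 and 299 at 24 h. The part of these markers in the differences of the IL1 family genes was not tested.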

How the data were processed

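The data were 4 RNA-seq libraries of TPC1 cells, 2 after 6 h in BLU6864 and 2 after 24 h. The authors aligned reads with STAR (2.3 in the submitters' processing notes, 2.7.7 in the methods) to hg19 and deposited raw read counts per gene. The authors also deposited a normalized signal, the count divided by a DESeq2 size factor, and their own comparison as log2 fold changes, a Wald score, and p-values, none of which was used. The number of unmapped columns was 0. The counting program is not given in the sources used here.

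The raw counts entered edgeR 4.0.16 under R 4.3.3 (filterByExpr, TMM, quasi-likelihood test, time as the only factor), and DESeq2 1.42.0 was the alternative. A gene was called at a log2 fold change over 0.5 in size with an unadjusted P under 0.01, as the study's methods state for a fall. For a normalized count, the raw count was divided by its library's TMM-scaled size and multiplied by the mean of the 4 such sizes. Each standard error is the size of the log2 fold change over the square root of its F statistic. That statistic draws on a dispersion shared in part across genes, so the standard error is not the replicate spread of a single gene. For IL33 the replicate spread was 0.534 on the log2 scale (SD). Genes were matched to GENCODE v44 by Ensembl identifier for length, and for the start that picked each promoter window, and its coordinates were not mixed with those of hg19, since only 3.94% of 19457 genes begin within 1000 bp of where it places them. The edgeR and DESeq2 fits alone were tested on simulated counts, with 1 dispersion for all genes and 200 of 12876 genes changed by 1 on the log2 scale. At an adjusted P under 0.05, edgeR recovered 91% of them and DESeq2 83.5%, and 2.15% and 1.18% of the calls were false. Far fewer genes changed there than in the data, so these rates may not hold for the data.

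The 9 genes and the lists were chosen with earlier results of these data known. From each list, up to 4 called genes with the largest rise and up to 4 with the largest fall were named, beside the called genes at the loci, and for IL33, IL1A, and IL1B the 3 genes most like each among those with a mean normalized count of at least 10. Alternatives were an adjusted P under 0.05 without a limit on size, each library left out in turn, a replicate block, DESeq2, upper quartile scaling, library size alone, a minimum of 10 counts in each library, and no filter. With 2 libraries per time point, outliers were not tested.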

Additional observations from a re-analysis of the deposited data

How the results depend on the processing

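The log2 fold changes of the 6 IL1 family genes that passed the filter kept their sign under every alternative run. That of IL1A shifted beyond its replicate spread with library size alone, to -3.59, and library size alone moved the median of all genes from 0.0029 to -0.040. With each library left out in turn, the log2 fold change ranged from -6.17 to -5.08 for IL33, from -0.63 to -0.50 for IL1R1, and from -0.69 to -0.57 for IL1RAP. An adjusted P under 0.05 without a limit on size lets smaller differences pass, and it gave 4247 higher and 4196 lower genes. Among the lists it gave 9 higher and 8 lower signalling genes and 6 higher and 16 lower IL1-induced genes. There were 7 higher and 1 lower processing genes, and 1 higher and 2 lower other receptor genes. At the loci, 4 other genes were higher and 3 lower. The number of signalling genes that rose was 3 with upper quartile scaling and between 1 and 4 with a library left out. The number of other receptor genes that rose was 0 with DESeq2, where IL1R2 was lost, and between 0 and 1 with a library left out, while the number that fell was between 1 and 2, with 2 without library 1 at 24 h. With a library left out, between 0 and 1 of the other genes at the loci fell, with 1 without library 1 at 24 h. In those fits the lone library is assumed to vary like the other time point.

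The replicate numbers 1 and 2 occur at both times, but the labels do not say what they mark, and the deviations of same-numbered libraries correlated at 0.0844 across genes. With the replicate number as a block, IL33 had a log2 fold change of -5.54 and 2283 genes were higher and 2313 lower. The block changed no count of the lists. IL18, IL1RN, and IL1RL1 are limited by depth, with at most 10 counts in a library.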
